A study of Mus musculus with 8 samples.

Results

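The genes described here are 10 transcripts of the reactive retinal glial response: Gfap, Vim, Nes, Serpina3n, Lcn2, Steap4, Timp1, Cebpd, Cp and S100a6. They were taken by symbol from a table of 57010 mouse gene identifiers, and they were chosen by their measured levels, which had been noted to peak in rd10 retina at postnatal day 18 (P18). Each symbol matched 1 identifier, and all 10 were among the 20457 genes that passed the filter on low counts. The values that chose them are therefore given as a description. The only comparison in which their test is read as a result is that of rd10 with WT retina at P15. A peak at P18 keeps both P15 groups below P18 but does not set their order. This comparison is thus not wholly free of the choice. In the other comparisons the number of these genes called is printed beside the share called over all genes, as a description that the choice of the genes helps to fix.

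Poly(A) RNA of whole retinas was sequenced for wild-type (WT) animals aged P15 and for rd10 animals aged P15, P18 or P21, making 4 groups of 2 libraries. The rd10 mice were homozygous for the rd10 mutation of Pde6b, which encodes the beta subunit of rod phosphodiesterase and whose loss of function kills rods, and the study's methods name wild-type littermates as controls and C57BL/6J as its wild-type strain. The samples were whole retinal tissue without sorting of cells, and the labels name no treatment. No WT retina older than P15 was analysed here, so at P18 and P21 age and genotype change together and their parts cannot be told apart.

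Müller glia are the main supporting cells of the retina and span its whole depth. When photoreceptors are injured they enter gliosis, a reactive state known for more intermediate filament protein (GFAP, vimentin and nestin), for secreted acute-phase proteins and for signalling through cytokines of the interleukin-6 family, their shared receptor chain gp130 and the transcription factor STAT3. Astrocytes, which lie at the inner retinal surface, use many of the same genes, and vessel cells and microglia express some of them as well.

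Total counts lay between 28076947 and 33724562 per library. Levels are given as CPM (counts per 1000000 counts of the TMM-scaled library), with library replicate 1 before replicate 2. Fold changes are log2 values from 1 edgeR fit of all 8 libraries, with a standard error (SE) derived from its test. This SE is the absolute log2 fold change divided by the square root of the quasi-likelihood F statistic, not an output of edgeR. A gene was called changed at a Benjamini-Hochberg adjusted p below 0.05 with an absolute log2 fold change above 1. Nothing in the labels ties the libraries of a group to separate animals beyond the words biological replicates, so a p-value measures the spread between these samples only. Both WT libraries had more Xist than Y-linked counts and both rd10 P15 libraries the opposite, while the P18 and P21 groups had 1 library of each kind. Sex and genotype can thus not be told apart within the P15 libraries.

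Among the intermediate filament genes, Gfap, the filament protein most used as a sign of glial reactivity, gave 27.3 and 43.0 CPM in WT retina, 28.1 and 25.0 CPM in rd10 retina at P15, 363 and 399 CPM at P18, and 126 and 119.8 CPM at P21. Its P18 libraries stood far above all others, its P21 libraries lay between, and the P15 libraries of both genotypes were low. The log2 fold change against WT was 3.44 (SE 0.22) at P18 and 1.81 (SE 0.21) at P21, and at P21 the mean level was 32.3% of the P18 mean. The 250 bases before the RefSeq start of Gfap (GRCm38.p6, chr11:102897201-102897450, minus strand, written 5′ to 3′ on the strand of the gene) are shown because they hold 2 of the motif matches described at the end, a short NF-kB form and a STAT form, in capitals:
Gfap: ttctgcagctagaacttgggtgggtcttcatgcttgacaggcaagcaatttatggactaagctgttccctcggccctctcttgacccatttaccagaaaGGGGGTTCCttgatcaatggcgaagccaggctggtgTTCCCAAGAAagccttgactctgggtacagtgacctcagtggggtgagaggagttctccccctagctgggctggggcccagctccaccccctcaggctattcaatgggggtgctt

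Vim, which encodes vimentin, the filament protein that Müller glia carry without injury, had the highest level per kilobase of exon of all 10 genes in WT retina. Its level was 117 and 107 CPM in WT retina, 212 and 157 CPM in rd10 retina at P15, 355 and 337 CPM at P18, and 129.7 and 209 CPM at P21. Both rd10 P15 libraries were above both WT libraries, and the P21 libraries were spread wider than those of the other groups, with a mean ± SD of 169.6 ± 56.4 CPM (n = 2). The log2 fold change against WT was 1.63 (SE 0.24) at P18 and 0.60 (SE 0.23) at P21.

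Nes encodes nestin, a filament protein of neural progenitors that reactive glia and young vessel cells also make. Its level was 7.76 and 7.71 CPM in WT retina, 21.8 and 21.1 CPM in rd10 retina at P15, 26.8 and 24.8 CPM at P18, and 11.1 and 10.5 CPM at P21. Nes was thus already high in both rd10 libraries at P15, close to its P18 level, and low again at P21. Against WT retina the log2 fold change was 1.74 (SE 0.18) at P18 and 0.48 (SE 0.18) at P21, and between rd10 P15 and P18 it was 0.27 (SE 0.17).

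Of the genes for secreted proteins, Serpina3n, a serine protease inhibitor and a leading marker of reactive astrocytes, gave 5.21 and 3.27 CPM in WT retina, 2.07 and 3.42 CPM in rd10 retina at P15, 212 and 241 CPM at P18, and 131 and 57.6 CPM at P21. The groups at P15 overlapped, both P18 libraries were above both P21 libraries, and the P21 libraries differed from each other by a ratio of 2.27. Its log2 fold change against WT was 5.74 (SE 0.51) at P18 and 4.48 (SE 0.48) at P21. The near relatives of Serpina3n, whose reads could be divided differently by the counting, reached at most 6.32 CPM for Serpina3g and 2.68 CPM for Serpina3f. The 250 bases before the RefSeq start of Serpina3n (GRCm38.p6, chr12:104406458-104406707, plus strand) hold a loose NF-kB form, in capitals:
Serpina3n: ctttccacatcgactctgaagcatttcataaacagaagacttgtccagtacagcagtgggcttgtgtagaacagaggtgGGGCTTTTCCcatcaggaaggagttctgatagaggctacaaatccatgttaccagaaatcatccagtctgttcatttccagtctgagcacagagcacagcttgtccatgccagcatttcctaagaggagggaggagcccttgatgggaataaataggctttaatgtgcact

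Lcn2 encodes lipocalin 2, which binds bacterial iron carriers and is an acute-phase protein of many tissues. Its level was 5.36 and 2.20 CPM in WT retina, 2.23 and 2.19 CPM in rd10 retina at P15, 269 and 210.5 CPM at P18, and 50.4 and 11.9 CPM at P21. The P21 libraries differed by a ratio of 4.24, the widest of the 10 genes at that age, and both were far below both P18 libraries. The log2 fold change against WT was 5.99 (SE 0.85) at P18 and 3.05 (SE 0.76) at P21, and without P21 replicate 1 the latter was 1.66. The 250 bases before the RefSeq start of Lcn2 (GRCm38.p6, chr2:32387740-32387989, minus strand, written 5′ to 3′ on the strand of the gene) hold a short C/EBP form and a STAT form, in capitals:
Lcn2: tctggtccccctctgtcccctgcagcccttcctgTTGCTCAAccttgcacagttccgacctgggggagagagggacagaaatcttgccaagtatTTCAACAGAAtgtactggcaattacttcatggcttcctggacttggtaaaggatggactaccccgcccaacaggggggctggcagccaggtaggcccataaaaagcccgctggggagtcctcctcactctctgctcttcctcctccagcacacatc

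Neutrophils also store lipocalin 2. Of 7 neutrophil markers, Ngp, Ltf, Elane, Mpo and Retnlg had 0 counts in every library, which does not exclude a very low level. Camp and Cxcr2 had at most 4 and 6 counts, while the Lcn2 counts at P18 were 9024 and 6680. S100a8 and S100a9, which neutrophils also express strongly, had 51 and 14 counts in P18 replicate 1, the library with the highest Lcn2 level, S100a8 had 4 counts in P21 replicate 2, and both were at 0 in all other libraries. The part of neutrophils in the Lcn2 level was not tested.

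Timp1, an inhibitor of matrix metalloproteinases, was close to absent at P15, with 0.222 and 0.453 CPM in WT retina and 0 and 0.282 CPM in rd10 retina. It gave 29.2 and 21.3 CPM at P18 and 5.17 and 1.26 CPM at P21. The P15 values rest on 0 to 14 counts, so its log2 fold change against WT at P18, 6.19 (SE 1.04), is known less closely than that of Gfap, and the P21 libraries differed by a ratio of 4.11. At P21 the log2 fold change against WT was 3.23 (SE 0.97), and 1.87 without P21 replicate 1.

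Cp encodes ceruloplasmin, a copper-carrying ferroxidase that Müller glia make without injury. Its level was 116 and 125 CPM in WT retina, 115 and 113 CPM in rd10 retina at P15, 516 and 551 CPM at P18, and 354 and 235 CPM at P21. It was the gene with the smallest fall from P18 to P21, a log2 fold change of -0.85 (SE 0.19), and its mean at P21 was still 55.3% of that at P18. Against WT retina the log2 fold change was 2.15 (SE 0.20) at P18 and 1.29 (SE 0.19) at P21. In GENCODE M21, 108 exonic bases of Cp lie on the opposite strand of exons of Hps3, whose log2 fold change against WT at P18 was -0.45 (SE 0.20) and not called. RefSeq lists more than 1 start for Cp, and the 250 bases before the downstream start (GRCm38.p6, chr3:19956999-19957248, plus strand) hold a short C/EBP form on the minus strand, in capitals:
Cp: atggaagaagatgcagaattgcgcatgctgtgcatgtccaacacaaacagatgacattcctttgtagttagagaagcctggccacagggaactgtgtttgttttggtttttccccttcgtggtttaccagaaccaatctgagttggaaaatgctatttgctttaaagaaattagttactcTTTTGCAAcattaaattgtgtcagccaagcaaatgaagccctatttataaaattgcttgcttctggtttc

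Steap4, a membrane metalloreductase that reduces iron and copper, was at 0 and 0.388 CPM in WT retina and at 0.191 and 0.635 CPM in rd10 retina at P15. It reached 21.5 and 32.1 CPM at P18 and kept 12.05 and 6.96 CPM at P21. Its log2 fold change of 7.02 (SE 0.99) against WT at P18 was the highest of the 10 genes and rests on 0 and 12 WT counts, and at P21 the value was 5.52 (SE 0.96). Leaving out WT replicate 2, which holds those 12 counts, moved these values to 12.69 and 11.20. The 250 bases before the RefSeq start of Steap4 (GRCm38.p6, chr5:7960222-7960471, plus strand) hold NF-kB, STAT and C/EBP forms, in capitals:
Steap4: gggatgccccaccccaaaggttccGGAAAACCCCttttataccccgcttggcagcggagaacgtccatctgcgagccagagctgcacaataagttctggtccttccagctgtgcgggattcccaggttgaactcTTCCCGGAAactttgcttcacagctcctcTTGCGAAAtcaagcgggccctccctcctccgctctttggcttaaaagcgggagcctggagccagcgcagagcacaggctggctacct

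Cebpd encodes C/EBP delta, a transcription factor that acute-phase cytokines induce. Its level was 11.9 and 14.4 CPM in WT retina, 6.87 and 7.93 CPM in rd10 retina at P15, 169.5 and 106 CPM at P18, and 51.5 and 40.2 CPM at P21. Both rd10 libraries at P15 were below both WT libraries, and both at P18 and P21 were above. The log2 fold change against WT was 3.39 (SE 0.26) at P18 and 1.80 (SE 0.25) at P21. In GENCODE M21, 562 exonic bases of Cebpd lie on the opposite strand of exons of Spidr, and whether the counting used strand is not given in the sources used here. Spidr itself gave 5.21 and 5.70 CPM in WT retina and 16.5 and 20.2 CPM at P18, with a log2 fold change of 1.75 (SE 0.24) and an adjusted p of 0.0188 (edgeR). Without strand, reads from the shared bases, 562 of the 3746 exonic bases of Cebpd, cannot be told apart.

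S100a6, a small calcium-binding protein of growing and reactive cells, gave 1.96 and 2.43 CPM in WT retina, 2.07 and 2.47 CPM in rd10 retina at P15, 52.9 and 34.2 CPM at P18, and 18.5 and 10.3 CPM at P21. Its groups at P15 overlapped, and each later library was above all P15 libraries. The log2 fold change against WT was 4.31 (SE 0.37) at P18 and 2.71 (SE 0.35) at P21.

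**Figure D1:**
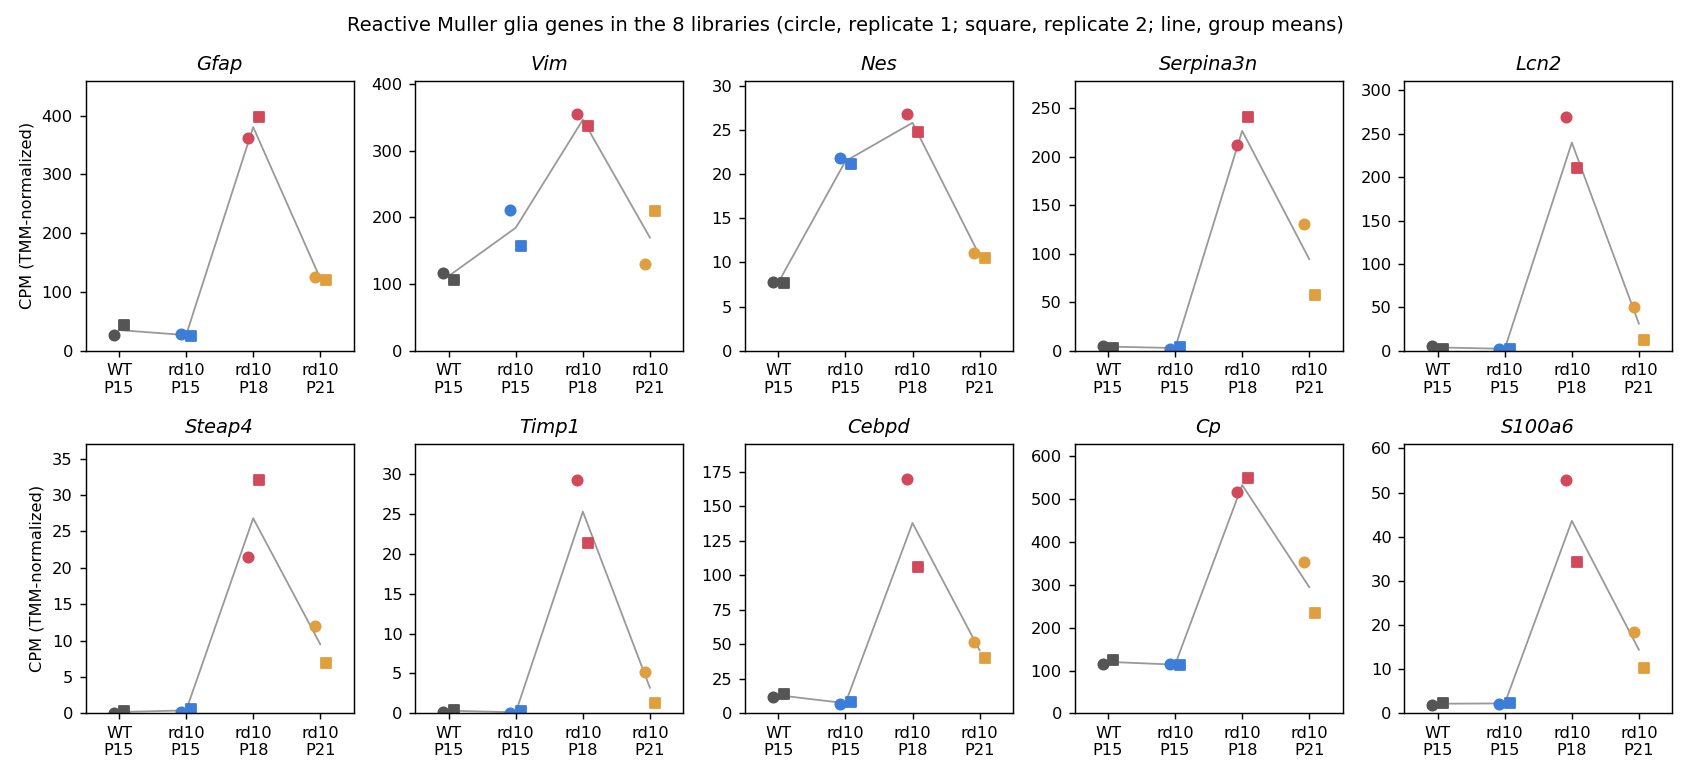
Level of each gene in CPM (TMM-scaled, linear axis from 0, a separate scale per panel) in the 4 groups, with 1 point per library (circle, replicate 1, square, replicate 2) and a line through the group means. In each panel both P18 libraries stand above the libraries of every other group, and in the Nes panel the rd10 P15 libraries, at 21.8 and 21.1 CPM, lie close to them.

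In rd10 retina at P15 the reactive genes were not raised as a group, though the peak that chose them also keeps their P15 levels below P18. Relative to WT, 4 of the 10 genes were higher and 6 lower, with a median log2 fold change of -0.24 beside -0.01 over all genes tested. Nes alone was called, 1 of 10 genes, beside 0.23% of all genes tested and 0.137% called higher. Its log2 fold change was 1.47 (SE 0.18) with an adjusted p of 0.0248 by edgeR's quasi-likelihood test. The call was kept by DESeq2 (adjusted p 2.46e-07), but it was lost when any library of WT, rd10 P15 or rd10 P21 was left out (adjusted p between 0.0633 and 0.177), under the replicate block (0.0603) and with a term for sex (0.200), while the fold change in these fits stayed between 1.37 and 1.50. Leaving out either P18 library kept it (0.00775 and 0.00746).

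The remaining 9 genes were not called at P15. Vim had a log2 fold change of 0.72 (SE 0.23) with an adjusted p of 0.257, and Cebpd one of -0.83 (SE 0.25) with an adjusted p of 0.220, both by edgeR. Gfap, Serpina3n, Lcn2 and Timp1 had negative values between -0.40 and -1.30, Cp and S100a6 values of -0.08 and 0.04, and Steap4 0.99 (SE 1.07), all with adjusted p-values of 0.479 or above (edgeR). For Lcn2, Steap4 and S100a6 the sign changed when single libraries were left out. Both libraries of Vim and Nes were above both WT libraries and both of Cebpd and Cp below, 2 and 2 of 10 genes, beside 24.8% and 24.9% of all genes tested.

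Other lists moved in the same comparison. The summed level of 7 pericyte and fibroblast markers was 115 and 114 CPM in WT retina and 216 and 228 CPM in rd10 retina at P15, of which Rgs5, a pericyte marker, was called (log2 fold change 1.02, adjusted p 0.0310, edgeR). Of 7 endothelial markers 5 were higher and 2 lower, and 1 was called, Cldn5, a tight junction gene (2.00, adjusted p 0.0150, edgeR). The endothelial sums overlapped, at 333 and 401 CPM in WT and 441 and 388 CPM in rd10 retina at P15. The part of vessel cells in the Nes value was not tested. Of 13 other intermediate filament and linker genes, 12 had higher values and 0 were called, the median log2 fold change being 0.46. Nefm, a neurofilament subunit of ganglion cells, had a value of 0.78 (SE 0.12) with an adjusted p of 0.0529 (edgeR). The sum of 7 markers of retinal pigment epithelium was also higher, at 29.8 and 109 CPM in WT and 168 and 202 CPM in rd10 retina at P15.

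At P18 all 10 genes were higher than in WT retina, which the way they were chosen fixes. The log2 fold changes ran from 1.63 for Vim to 7.02 for Steap4, with a median of 3.87 beside 0.01 over all genes tested. All 10 were called, beside 1.48% of all genes tested and 1.15% called higher, and both P18 libraries were above both WT libraries for 10 of 10 genes, beside 24.1%. The highest group mean lay at P18 for 10 of 10 genes, beside 28% of all genes tested. Nothing is read from these counts. The genes already well expressed in WT retina, Vim and Cp, and the low Nes had the smallest changes, and those under 6 CPM in every P15 library (Serpina3n, Lcn2, Steap4, Timp1 and S100a6) the 5 largest.

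Against rd10 retina at P15, the step to P18 had a median log2 fold change of 4.24, from 0.27 for Nes to 7.50 for Timp1. Gfap, Serpina3n, Cebpd, Cp and S100a6 were called, 5 of 10, beside 0.591% of all genes tested and 0.523% called higher, and both P18 libraries were above both rd10 P15 libraries for 10 of 10 genes, beside 21.9%. DESeq2, which called more genes than edgeR over all genes in each comparison with WT, called Lcn2, Steap4 and Timp1 as well. Its share over all genes from rd10 P15 to P18 is not given here. Vim and Nes were called by neither tool, with values of 0.91 (SE 0.23) and 0.27 (SE 0.17). Since the peak at P18 chose the genes, nothing is read from these counts.

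At P21 every gene was still above WT retina in both libraries, 10 of 10 beside 24.9% of all genes tested, and the median log2 fold change was 2.26. Gfap, Serpina3n, Cebpd, Cp and S100a6 were called, 5 of 10, beside 0.386% of all genes tested and 0.244% called higher. This count was lower without either WT library, either rd10 P15 library or P21 replicate 1. The number called over all genes was lower in these fits as well. From P18 to P21 all 10 genes were lower, with a median log2 fold change of -1.54 between -0.85 for Cp and -2.97 for Timp1, and both P21 libraries were below both P18 libraries for 10 of 10, beside 22% of all genes tested. By edgeR 0 of them were called, beside 0.0196% of all genes tested and 0.0147% called lower. Over all genes 2219 had an unadjusted p under 0.05. By DESeq2, which called more genes than edgeR over all genes in each comparison with WT, 6 of the 10 were called. The share that DESeq2 called over all genes from P18 to P21 is not given here. The fall after P18 is part of the peak that chose the genes, so nothing is read from these counts.

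The genes did not fall back alike. Measured as the share of the WT-to-P18 rise that was left at P21, Cp kept 42.2% and Serpina3n 40.5%, followed by Steap4 with 35.0%, S100a6 with 29.5%, Cebpd with 26.2%, Gfap with 25.4% and Vim with 24.6%. Nes kept 16.8%, Lcn2 11.6% and Timp1 11.5%. With 2 libraries that differ by the ratios given below, this order was not tested.

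**Figure D2:**
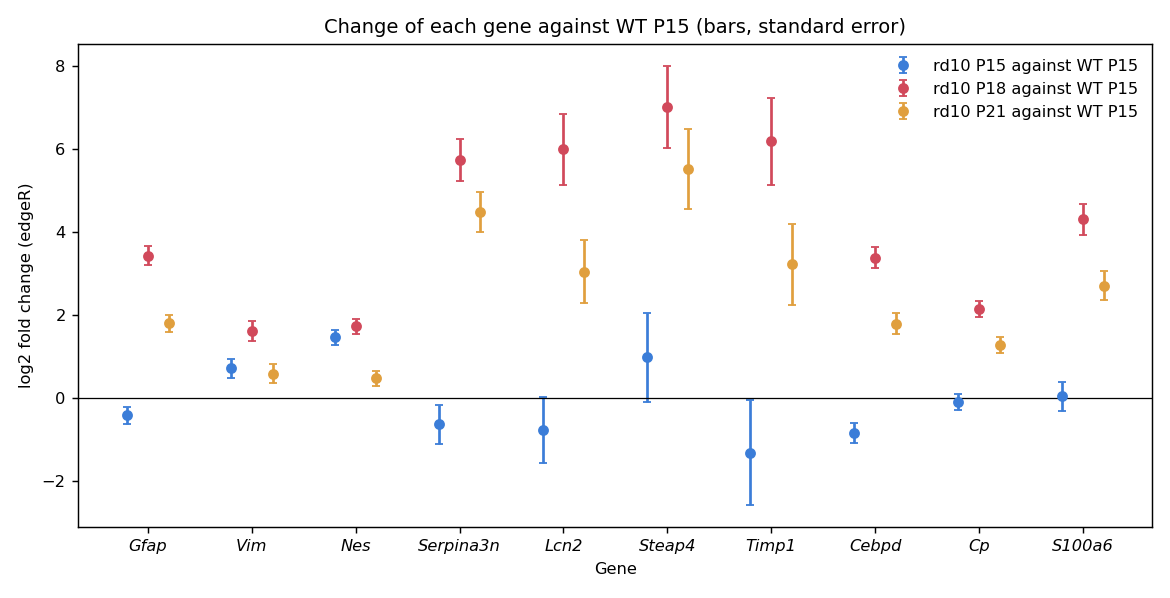
Log2 fold change of each gene against WT P15 in rd10 retina at P15, P18 and P21, from the edgeR fit of all 8 libraries. Bars show 1 standard error, derived from the F statistic of the test. The P18 points lie above the P21 points for all 10 genes, and the P15 points run from -1.30 for Timp1 to 1.47 for Nes, the only gene called at P15.

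The P21 libraries differed in the level of the response. Replicate 1 was higher than replicate 2 for 9 of 10 genes, Vim being the exception with a ratio of 0.62, beside 10439 of 20457 genes tested. The ratio was 4.24 for Lcn2, 4.11 for Timp1, 2.27 for Serpina3n, 1.80 for S100a6, 1.73 for Steap4, 1.51 for Cp, 1.28 for Cebpd and close to 1 for Nes and Gfap. The P21 libraries were thus furthest apart for Lcn2 and Timp1 and closest for Gfap and Nes. In the same replicates the summed level of 5 microglial markers was 117 and 69.6 CPM, and that of 11 genes known from inflammatory reactive astrocytes, the A1 list, was 885 and 367 CPM. Their part in the difference was not tested. At P18 and P21 alike, replicate 1 had more Y-linked than Xist counts and replicate 2 the opposite. Sex and replicate can thus not be told apart here. At P18 the libraries were closer, with ratios between 0.67 for Steap4 and 1.59 for Cebpd and 6 of 10 genes higher in replicate 1. There the microglial sum was 73.1 and 93.0 CPM and the A1 sum 876 and 495 CPM.

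Compared per kilobase of exon, the order of the genes changed with age. In WT retina the highest levels were those of Vim (23.6 CPM per kilobase), Cp (12.6) and Gfap (8.33), and Steap4 (0.0616) and Timp1 (0.380) were the lowest. At P18 Serpina3n led with 110 CPM per kilobase, followed by Lcn2 (91.4), Gfap (90.2), Vim (73.0) and Cp (55.8), while Nes (4.02) was the lowest. At P21 Serpina3n (45.7), Vim (35.8), Cp (30.8) and Gfap (29.1) were near each other, and the ranges of their P21 libraries overlapped. The 10 genes together took 293 and 306 CPM in WT retina, 390 and 333 CPM in rd10 retina at P15, 2015 and 1957 CPM at P18, and 890 and 703 CPM at P21.

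Across the 8 libraries the log2 CPM of the genes followed each other with correlations between 0.31 and 0.99 over 45 pairs, with a median of 0.94. These points share libraries and 4 group means, so they are a description only. Against the mean of the other members the coefficient was 0.93 to 0.99 for 8 genes, 0.75 for Vim and 0.47 for Nes. Nes was the member called at P15.

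Of genes outside the 10, those whose profile over the 8 libraries was most like the mean profile of the group were Pros1 (r = 0.996), Vsig8, Chil1, Cxcl1, Ccr1, Ch25h, Gpd1, Serpina3f, Nxn and Ltbr (r = 0.977). Among 20447 genes, 258 had a coefficient above 0.9. Pros1, which encodes the anticoagulant protein S, gave 10.4 and 10.4 CPM in WT retina, 12.3 and 13.5 CPM in rd10 retina at P15, 39.0 and 36.8 CPM at P18, and 22.0 and 20.5 CPM at P21. Chil1, a secreted chitinase-like protein of reactive astrocytes, gave 8.69 and 9.19 CPM in WT retina and 105 and 105 CPM at P18. Vsig8, Cxcl1, Ccr1 and Ch25h had 0 counts in all P15 libraries and at most 4.80 CPM at P18.

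The genes around the 10 were read from 11 lists of 127 genes, of which 118 were tested. Relative to WT, 0 were called at P15, 24 at P18, all higher, and 6 at P21, all higher, beside 1.48% and 0.386% of all genes tested at P18 and P21. From rd10 P15 to P18, 13 were called, all higher, beside 0.591% of all genes tested. From P18 to P21 0 were called. There DESeq2, which called more genes than edgeR over all genes against WT, called 8. Its share over all genes in that comparison is not given here. The count of 24 at P18 was lower without either WT library, and the number called over all genes was lower as well.

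In the interleukin-6 pathway, 3 of 11 receptor, kinase and STAT genes and 1 of 5 cytokines were called at P18, beside 1.48% of all genes tested. Socs3, the feedback inhibitor that STAT3 induces, gave 3.58 and 3.17 CPM in WT retina, 1.94 and 1.48 CPM in rd10 retina at P15, 51.6 and 42.7 CPM at P18, and 12.3 and 7.83 CPM at P21. Its P18 libraries stood alone, and its log2 fold change was 3.80 (SE 0.29) against WT with an adjusted p of 0.00171 (edgeR). Stat3 itself, the transcription factor, rose by 1.47 (SE 0.12, adjusted p 0.00271) at P18 and was still higher by 1.16 (SE 0.12, adjusted p 0.0226) at P21, and Osmr, the oncostatin M receptor, by 2.38 (SE 0.26, adjusted p 0.00787) and 1.74 (SE 0.26, adjusted p 0.0434), by edgeR. These were 3 of 11 receptor, kinase and STAT genes at P18 and 2 of 11 at P21, and the median of the list was -0.03 at P18, beside 0.01 over all genes. Il6st, which encodes gp130, had a value of 0.25 (SE 0.21) and Lifr one of -0.34 (SE 0.14), neither called.

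Of the cytokines, Cntf, ciliary neurotrophic factor, was called at P18, with a log2 fold change of 2.13 (SE 0.37) and an adjusted p of 0.0349 (edgeR), 1 of 5 tested. Lif gave 0.517 and 1.23 CPM in WT retina and 4.92 and 9.14 CPM at P18, which was not called (adjusted p 0.0927, edgeR). Il6 had 0 counts in every library, which does not exclude a very low level, and Osm reached at most 0.314 CPM.

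Among 14 genes of the C/EBP, NF-kB and AP-1 families all had higher values at P18 and 4 were called, with a median of 1.16. Bcl3, a nuclear partner of NF-kB, gave 0.480 and 0.0647 CPM in WT retina and 19.9 and 18.7 CPM at P18, a log2 fold change of 6.17 (SE 0.65, adjusted p 0.00697, edgeR). Cebpb rose by 3.02 (SE 0.47, adjusted p 0.0285), Atf3 by 2.31 (SE 0.34, adjusted p 0.0222) and Junb by 1.93 (SE 0.21, adjusted p 0.00805). At P21 Bcl3 alone of the list was called (4.10, SE 0.62, adjusted p 0.0445).

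Of the reactive astrocyte genes shared across injuries, Cd44, the hyaluronan receptor, rose by 2.39 (SE 0.29, adjusted p 0.0125, edgeR) at P18 and S1pr3, a sphingosine phosphate receptor, by 1.53 (SE 0.20, adjusted p 0.0160), and with Osmr they made 3 of 6 called at P18 and 3 of 6 at P21. Cd44 gave 10.6 and 8.51 CPM in WT retina, 39.6 and 60.1 CPM at P18, and 44.7 and 33.6 CPM at P21, so its P18 and P21 libraries overlapped. The A1 list had 2 of 11 called at P18, Serping1, the C1 inhibitor (4.46, SE 0.61, adjusted p 0.0303), and Srgn, a proteoglycan core (2.30, SE 0.39, adjusted p 0.0318), and the A2 list, known from ischaemia, also 2 of 11, B3gnt5, a glycosyltransferase (3.65, SE 0.70, adjusted p 0.0439), and S100a10 (1.23, SE 0.22, adjusted p 0.0370), all by edgeR.

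Among other filament genes, Prph, the peripheral neuron filament peripherin, rose by 3.03 (SE 0.21, adjusted p 0.00130, edgeR) at P18, from 7.35 and 7.38 CPM in WT retina to 63.3 and 57.2 CPM, and fell to 16.5 and 17.3 CPM at P21, a drop that was not called. Krt18, a keratin, rose by 1.44 (SE 0.22, adjusted p 0.0269), and the other 11 of 13 were not called at P18. The list's median was 0.23.

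For the partners of Timp1 and Serpina3n, 4 of 14 other protease inhibitors and matrix proteases were called at P18, with a median of 1.21. They were Serping1, A2m (alpha-2-macroglobulin, 3.59, SE 0.46, adjusted p 0.0222), Cd63 (a membrane partner of TIMP1, 1.69, SE 0.25, adjusted p 0.0222) and Mmp14 (a membrane metalloproteinase, 1.47, SE 0.16, adjusted p 0.00782), by edgeR. Around S100a6, 4 of 9 S100 genes and partners were called, S100a11 (4.34, SE 0.53, adjusted p 0.0127), S100a16 (1.55, SE 0.21, adjusted p 0.0172), Anxa2 (1.48, SE 0.27, adjusted p 0.0370) and S100a10. Around Cp, Lcn2 and Steap4, 1 of 16 iron and copper handling genes was called, Hmox1, heme oxygenase 1 (2.93, SE 0.58, adjusted p 0.0492, edgeR), and the list's median was 0.21.

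**Figure D3:**
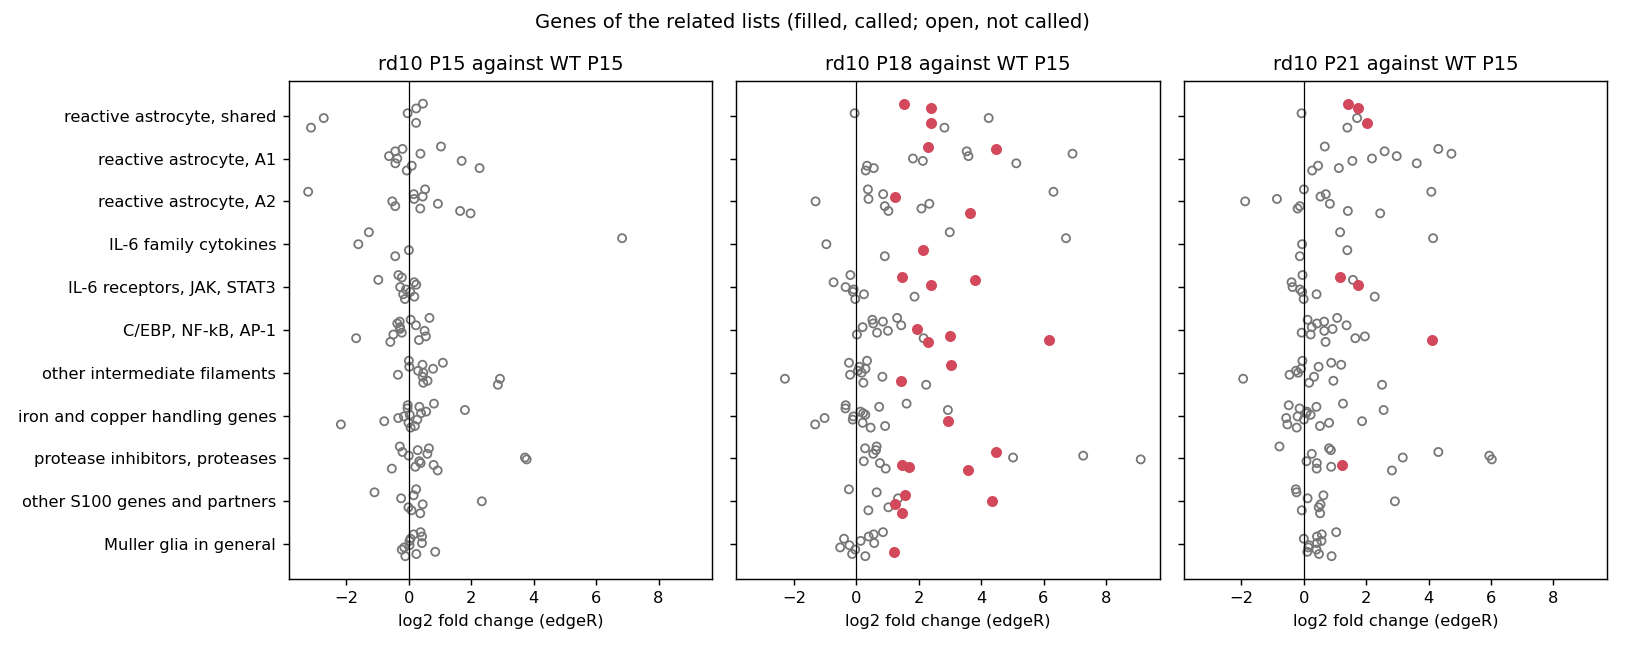
Log2 fold change (edgeR) of each tested gene of the 11 related lists against WT P15 at P15, P18 and P21, on the same axis, filled where called. In the first panel 0 genes are called, in the second 24 and in the third 6. Of the list of Müller glia genes in general, Dbi (1.22 at P18) is the only filled point.

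Of 12 general Müller glia genes (Glul, Rlbp1, Slc1a3, Aqp4 and others), 1 was called at P18, Dbi, which encodes an acyl-CoA binding protein (1.22, SE 0.22, adjusted p 0.0370, edgeR), and the median log2 fold change was 0.21. Glul, glutamine synthetase, gave 2499 and 2736 CPM in WT retina and 1814 and 1847 CPM at P18, a log2 fold change of -0.52 (SE 0.14) that was not called. The sum of the 12 was 4458 and 4985 CPM in WT retina, 4832 and 4142 CPM in rd10 retina at P15, 3926 and 4042 CPM at P18, and 5771 and 5448 CPM at P21. Glul made up about as much of this sum as all the others, and without it, a sum taken after the values were seen, the other 11 gave 1959 and 2249 CPM in WT retina, 2262 and 1978 CPM in rd10 retina at P15, 2112 and 2195 CPM at P18, and 2856 and 2564 CPM at P21. The P18 sum of the other 11 lay within the range of the P15 libraries, but this does not show that Glul alone was lower. Against WT at P18, 7 of the 12 were higher, Slc1a3 and Dbi among them, and 5 lower. Rlbp1 was among the lower, with 346 and 396 CPM in WT retina and 294 and 271 CPM at P18. At P21 all 12 had higher values than in WT retina, with a median of 0.42, and 0 were called. In whole retina, fewer cells of a type and less RNA per cell cannot be told apart.

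Markers of other cells also differed between the groups. The sum of 6 astrocyte markers was 63.7 and 79.8 CPM in WT retina, 99.1 and 104 CPM in rd10 retina at P15, 147 and 118 CPM at P18, and 103 and 134 CPM at P21, so it was above WT before the 10 genes peaked. At P18 against WT, 5 of the 6 were higher and 1 lower, and Aldh1l1 (1.46, SE 0.21, adjusted p 0.0222) and Slc14a1 (1.27, SE 0.22, adjusted p 0.0349) were called by edgeR. From rd10 P15 to P18 these 2 were higher and the other 4 lower, with a list median of -0.42. Pax2, the defining transcription factor of retinal astrocytes, was at most 2.57 CPM in any library. The microglial sum was 29.0 and 28.2 CPM in WT retina, 48.2 and 47.1 CPM in rd10 retina at P15, 73.1 and 93.0 CPM at P18, and 117 and 69.6 CPM at P21, with Tmem119 called at P18 (2.27, SE 0.45, adjusted p 0.0479, edgeR). The sum of 6 rod genes was 40374 and 31867 CPM in WT retina and 23429 and 24618 CPM in rd10 retina at P15. It was 20840 and 21520 CPM at P18 and 15241 and 19627 CPM at P21. The part of these cells in the levels of the 10 genes was not tested, and the files do not say in which cells the transcripts lay.

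**Figure D4:**
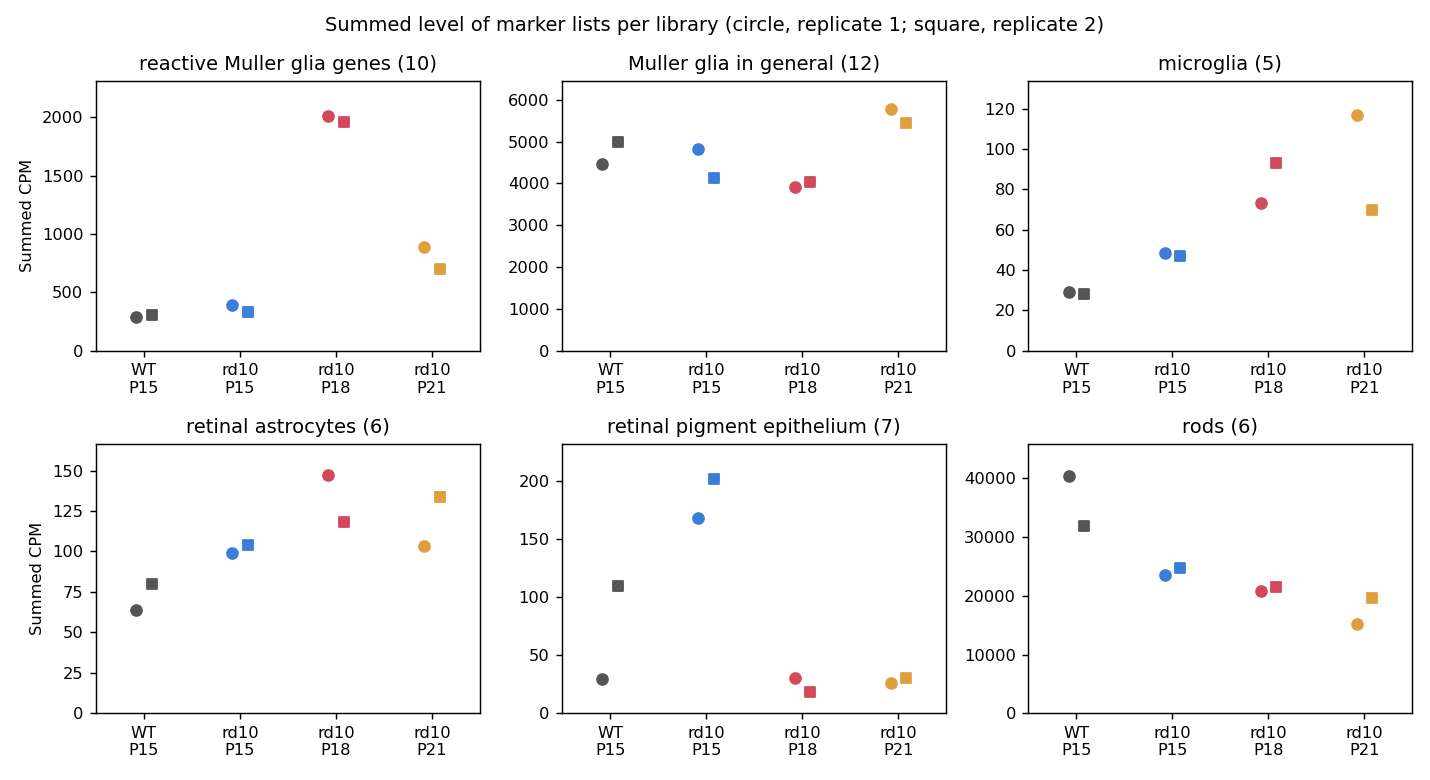
Summed CPM of the 10 reactive genes and of 5 marker lists in each library (circles, replicate 1, squares, replicate 2, linear axes from 0 with a separate scale per panel). The reactive sum stands highest at P18, at 2015 and 1957 CPM. The sum of general Müller glia genes, of which Glul is a large share, runs from 3926 to 5771 CPM, and the rod sum falls from 40374 and 31867 CPM in WT retina to 15241 and 19627 CPM at P21.

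Letters known from binding sites of STAT, C/EBP, NF-kB and AP-1 factors were searched on both strands in the 250 bases before each RefSeq start in the GRCm38.p6 table, in which 9 of the 10 genes have an entry. The STAT form TTCNNNGAA was found in Steap4 (from -116 to -108 of the start) and in 7.02% of 32851 starts, and TTC and GAA with 4 free bases between them in Gfap (from -115 to -106) and Lcn2 (from -156 to -147) and in 5.85%. The C/EBP form TTGCNNAA was found in Lcn2, Cp and Steap4 and in 9.56% of starts, while TTGCNNCAA, in 1.74%, was in none of the 9. The loose NF-kB form, GGG and TTTCC with 2 free bases between them, was found in Serpina3n, Steap4 and Vim and in 1.41% of starts, GGGNNTTCC, which overlaps it, in Gfap, Steap4 and Vim and in 4.98%, and the strict form, in which the first of these bases is A, in 0.356% of starts and none of the 9. The AP-1 form TGANTCA was found before the upstream start of Cp and in 6.75% of starts. In all, 6 of the 9 genes held some match. The share of all starts with any of the 8 forms was not counted, and the forms were settled after these promoters were searched. Nothing is thus read from this number. A match is a run of letters, not a bound site, and the sequence says nothing about where these factors sit in the retina.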

How the data were processed

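Whole-retina poly(A) RNA-seq was available for 8 libraries in 4 groups. The authors deposited raw counts, whole numbers per Ensembl gene without normalization. HISAT2 is named in the submitters' processing notes, while the counter, strand setting, build and gene models behind the table were not given in the sources used here. GENCODE M21 gave symbols, lengths and overlaps (52029 of 57010 identifiers named), and RefSeq (GRCm38.p6) the promoters. Counts were filtered with filterByExpr (minimum count 10), scaled by TMM and fitted with edgeR 4.0.16 (quasi-likelihood, robust, 4 residual degrees of freedom) in R 4.3.3, and the procedure was tested on simulated data. The alternatives were DESeq2 1.42.0, scaling by RLE or by library size only, no low-count filter, adjusted p alone, only the 4 libraries compared, a replicate block, a sex term (from Xist and Y-linked genes) and leaving out each library. With 2 libraries against 2, an exact permutation test of a single gene cannot go below p = 0.333, so none was run.

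The members and lists were chosen with earlier results of these data known, and the motif forms were settled after the promoters were searched. Named were all members, up to 3 called genes with the largest change of each related list, overlapping genes and paralogs, and the 10 genes most like the members' mean profile. Junb, Mmp14, S100a10 in its own list, Lif, Il6, Osm, Il6st, Lifr, S100a8, S100a9 and the marker genes were named after their values were seen. A marker gene is not reported here and was left out of its list.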

Additional observations from a re-analysis of the deposited data

Results flagged for a closer look

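Only the members and the related genes named by rule were searched for opposite directions between ages. Of these, 5, the members Cebpd and Cp and the related genes Socs3, Stat3 and Atf3, had both rd10 libraries below both WT libraries at P15 and both above them at P18 and P21. Over all genes tested, 24.9% lay below at P15, 24.1% above at P18 and 24.9% above at P21. The share with all of these was not counted. Cebpd had a mean of 7.40 CPM at P15, 138 at P18 and 45.8 at P21. For Cp the means were 114, 533 and 295 CPM, for Socs3 1.71, 47.1 and 10.1 CPM, for Stat3 61.5, 199 and 161 CPM, and for Atf3 2.74, 20.5 and 6.69 CPM. None of the 5 was called at P15. From P15 to P18 the rise was called for Socs3 (log2 fold change 4.78, adjusted p 0.000758), Stat3 (1.70, adjusted p 0.00116) and Atf3 (2.90, adjusted p 0.0166) by edgeR. For Cebpd and Cp the calls from P15 to P18 are not read as a result, since the peak at P18 chose them. Socs3, Stat3 and Atf3 were flagged for lying below WT at P15 and above it later, so their calls use the values that flagged them. For all 5 the difference between ages is a description.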

How the results depend on the processing

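All 10 members kept the direction of their change against WT at P18 and P21, from rd10 P15 to P18 and from P18 to P21 in every alternative run. With library size only, the median of all genes moved from 0.01 to 0.13 at P18 against WT. At P15 against WT, the sign of S100a6 turned with the sex term (-0.69) and, with 1 library left out, values ran from -0.10 to 0.21 for S100a6, from -1.28 to 0.0046 for Lcn2 and from -0.086 to 6.66 for Steap4.

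Over all genes and against WT, edgeR called 47 at P15, 303 at P18 and 79 at P21, while DESeq2 called 423, 948 and 571. A higher count with DESeq2 is thus not particular to these genes. Counts of called members, with edgeR's first, changed as follows, the other alternatives moving them by at most 2. At P15 against WT, 1 became 0 with the replicate block and with the sex term, and 0 to 1 with a library left out. At P18 against WT, 10 became 8 without the low-count filter, 9 with the replicate block, 8 with the sex term and 5 to 10 with a library left out (5 without WT replicate 1 and without P18 replicate 1, and 6 without WT replicate 2). From P15 to P18, 5 became 8 with DESeq2 and 2 to 7 with a library left out (2 and 3 without rd10 P15 replicates 1 and 2). At P21 against WT, 5 became 7 with DESeq2, 3 with only the 4 libraries compared, 1 with the replicate block, 3 with the sex term and 0 to 6 with a library left out. From P18 to P21, 0 became 6 with DESeq2, 2 without the filter, 1 with the sex term and 0 to 4 with a library left out (4 without P18 replicate 2).

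Of the related genes, 0 called at P15 became 3 with DESeq2, 1 without the filter, 1 with only the 4 libraries and 0 to 2 with a library left out. At P18, 24 became 40 with DESeq2, 14 with only the 4 libraries and 6 to 32 with a library left out. From P15 to P18, 13 became 32 with DESeq2, 23 with the sex term and 3 to 29 with a library left out (3 without either rd10 P15 library, 29 without P18 replicate 2). At P21, 6 became 23 with DESeq2, 2 with the replicate block, 2 with the sex term and 0 to 9 with a library left out. From P18 to P21, 0 became 8 with DESeq2, 2 without the filter, 1 with the replicate block, 1 with the sex term and 0 to 10 with a library left out (10 without P18 replicate 2). The number called over all genes, beside which the counts of members and related genes stand, also changed between these settings. It is given above for DESeq2 against WT. Against WT at P18 it was lower without either WT library and higher without P18 replicate 2. The cause of these changes was not tested.

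Replicate numbers do not pair the retinas: deviations of same-numbered libraries correlated between -0.02 and 0.06, so the replicate block is given as an alternative only. With a library left out, its group has 1 sample, which is assumed to vary like the others. Values of Timp1 and Steap4 at P15 rest on at most 18 counts.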
